A study of Mus musculus with 12 samples.

Results

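The genes described here encode the proteins of the cytosolic ribosome, measured in mouse cumulus cells after culture with FSH and EGF, with GDF9, or with neither. They were found by symbol in the array's gene annotation: names that begin with Rpl or Rps and a digit, the stalk proteins Rplp0, Rplp1 and Rplp2, and Rpsa, leaving out the S6 kinases and pseudogenes marked by -ps. The annotation listed 83 such symbols. For 20 of them, Rpl3, Rpl11, Rpl39, Rps27 and Rps27a among these, every probe set also carried another gene's symbol, so that no value is given for them. The other 63 symbols, of 19938 genes measured, are each represented by the probe set with the highest mean over all 12 arrays. Among the 63, 33 encode standard proteins of the large subunit and 21 encode standard proteins of the small subunit. The remaining 9 are paralogs, predicted copies and 1 gene whose protein binds a ribosomal protein, and they are described apart.

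Female 129SV mice, 21 to 26 days old, were given 5 IU equine chorionic gonadotropin, a hormone that makes follicles grow, and were used 44 h later. Whole cumulus-oocyte complexes were collected with the phosphodiesterase inhibitor cilostamide at 1 µM, which is not named for the culture medium, and cultured for 8 h, 20 to a 50 µL drop. The control group received 293H control medium at 0.125% (v/v). The FSH/EGF group received that medium with FSH, the pituitary follicle-stimulating hormone, at 50 mIU/ml and epidermal growth factor at 10 ng/ml. The GDF9 group received growth differentiation factor 9, a factor that oocytes secrete, at 20 ng/ml. The labels give no 293H medium for GDF9 cultures, and a difference in that medium between GDF9 and the other groups cannot be told apart from GDF9. Oocytes were present throughout culture in all 3 groups and were pipetted off before RNA extraction. RNA of 2 of the 8 biological replicates was pooled for each array, giving 4 arrays a group, so that p-values measure the spread between such pools.

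A ribosome is built from a small subunit, which reads the messenger RNA, and a large subunit, which joins the amino acids. Each subunit holds ribosomal RNA and a set of proteins made from separate genes, mostly in equal numbers of copies. The mRNAs of these proteins typically begin with a C followed by a run of pyrimidines, the terminal oligopyrimidine (TOP) motif, through which mTORC1 and the RNA-binding protein LARP1 control their translation. MYC is a known activator of their transcription. Cumulus cells that receive FSH and EGF secrete a hyaluronan matrix and spread around the oocyte.

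All values are log2 signals of 1 probe set, and a difference of -1 on this scale stands for a halved signal. Different probe sets bind their targets unequally, so that levels are compared only within a gene. The labelled cell type was checked on markers. The median of 13 granulosa lineage markers was 9.21 to 9.39 on control arrays, 9.02 to 9.29 on GDF9 arrays and 8.22 to 8.55 on FSH/EGF arrays, and 9 of the 13 fell and 1 rose with FSH/EGF (69.2% and 7.69%, against 14.9% and 21.9% of all genes). Of 7 listed cumulus markers, which include genes of matrix formation, 4 rose and 2 fell, with a median difference of 2.88. The median of 24 oocyte markers was 5.88 on control array 4, against a low of 4.72 in that group, and 4.56 to 5.05 on FSH/EGF arrays. Medians of endothelial, leukocyte, theca and stroma, red blood cell and surface epithelium markers lay between 4.48 and 6.0 on every array. Single genes of these lists moved further with FSH/EGF, in both directions, chosen here by size: Cdh5 by 3.18, Krt8 by 3.02, Krt18 by 2.72 and Star by 2.02 upward, and Acta2 by -2.34. Within a group, arrays correlated at 0.971 to 0.995. Control array 1 had the lowest weight that limma estimated (0.269, against 0.485 to 2.04) and stood above the other 3 controls for 28 of the 54 standard genes and below them for 14. In such bulk RNA, fewer cells of a type and less RNA per cell cannot be told apart.

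The annotated starts of some of the genes are shown because the TOP motif lies at the start of the mRNA. Each window below holds 30 bases of RefSeq's promoter table (GRCm38.p6), read 5′ to 3′ along the gene's strand, with 15 bases before the annotated first base. Capitals mark a C followed by at least 4 pyrimidines (C or T) that begins within 3 bases of that first base, searched on the gene's strand only. The first pair had large falls and no such run, the next 4 carry one, and the last pair encode the non-subunit genes that rose.
Rps13 (chr7:116334176-116334205, minus strand): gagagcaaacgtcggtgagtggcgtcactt
Rpl13 (chr8:123102335-123102364, plus strand): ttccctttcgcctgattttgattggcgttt
Rps10 (chr17:27635230-27635259, minus strand): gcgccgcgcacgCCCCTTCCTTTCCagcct
Rpl28 (chr7:4792950-4792979, plus strand): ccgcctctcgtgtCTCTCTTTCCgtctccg
Rps6 (chr4:86857353-86857382, minus strand): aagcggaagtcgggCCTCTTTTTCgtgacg
Rplp2 (chr7:141447636-141447665, plus strand): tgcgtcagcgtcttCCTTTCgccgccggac
Rps19bp1 (chr15:80264292-80264321, minus strand): cagggcggaagtagctcgccgcgtgtgggc
Rpl7l1 (chr17:46782642-46782671, minus strand): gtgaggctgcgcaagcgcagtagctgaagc
Of the 63 genes, 51 had a start in the table, 43 of them standard. The run began within 3 bases of the start in 14 of these 43 (32.6%), against 2311 of 17491 protein-coding genes (13.2%). At the exact first base it was found in 9 of 43 (20.9%) against 467 genes (2.67%). The large subunit (8 of 25, 32.0%) and the small subunit (6 of 18, 33.3%) had like shares. A match describes these letters only, and an annotated start can lie some bases from the one the cells use.

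With FSH/EGF, ribosomal protein mRNAs were lower than in the control, by a modest amount and across both subunits. Rps13 and Rpl13 showed the largest falls, to 62.3% and 64.7% of the control signal. Of the 54 standard genes, 23 (42.6%) fell past an adjusted p of 0.05 and 0 rose, where 14.9% of all genes fell and 21.9% rose. All 54 had a negative difference, of any size, against 60.2% of all genes. Their median difference was -0.29, or 81.9% of the control signal, with single genes from -0.68 to -0.05, while the median over all genes was -0.07. In 25 of the 54 all 4 FSH/EGF arrays lay below all 4 controls, against 19.6% of all genes. No standard gene reached a 2-fold change, against 7.37% of all genes that did so past the threshold. Over all 63 symbols, 25 fell, 2 rose and 36 did not pass, and 60 differences were negative and 3 positive. Rps19bp1, Rpl32l and Rps23rg1 were set apart from the 54 after their values were seen. The test was limma's moderated linear model over all 12 arrays, with Benjamini-Hochberg adjustment over all 35399 probe sets. When FSH/EGF array 3 and control arrays 1 and 4 were left out together, a set chosen after the values were seen, 14 of the 54 fell, with a median of -0.24. With all array medians made equal, which moves the median of all genes from -0.07 to 0.01, 16 fell, 53 of 54 differences were negative and the median was -0.21.

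**Figure D1:**
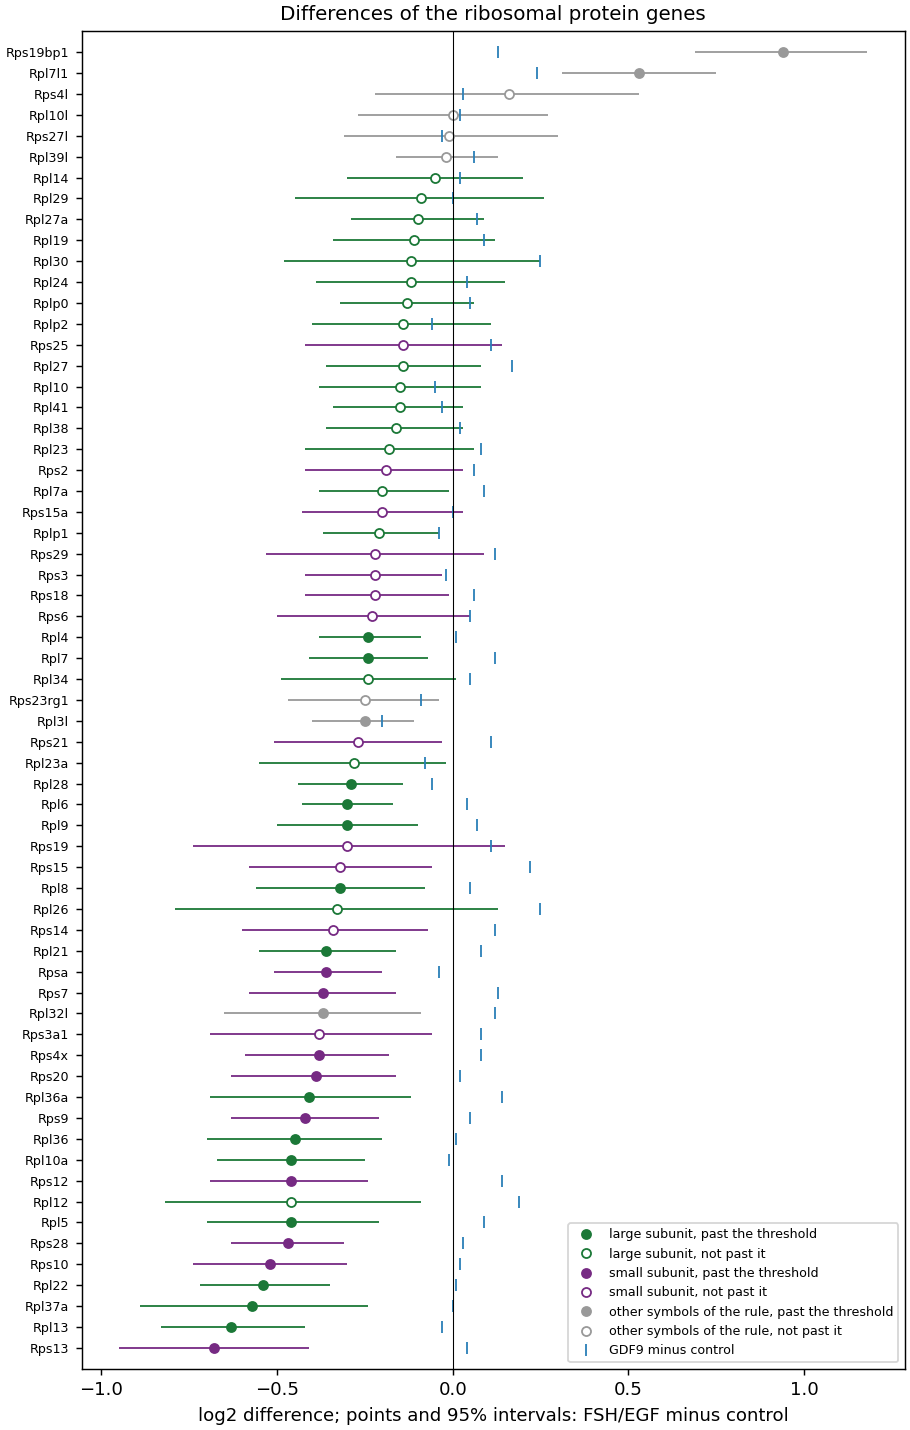
FSH/EGF minus control for each of the 63 genes, as a log2 difference (x axis) with its 95% interval, in order of size. Filled points passed the adjusted p of 0.05, green marks the large subunit, purple the small subunit and grey the other symbols, and blue ticks give GDF9 minus control. The green and purple points all lie below 0, between -0.68 and -0.05, and the grey point of Rps19bp1 lies farthest to the right at 0.94.

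The ribosomal proteins are encoded by abundant mRNAs, so the comparison was also read against bright genes. Of the 3007 genes with a mean log2 signal of at least 8, a level chosen after the values were seen, 16.5% fell and 43.9% rose with FSH/EGF, and their median difference was 0.24. Among standard ribosomal protein genes with a mean of at least 10, 21 of 41 fell (51.2%), with a median of -0.30. Of the 13 dimmer ones, 2 fell (15.4%), near the 14.9% of all genes. All 13 had a negative difference, with a median of -0.24. No share of all genes was taken at a mean of 10.

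Genes of both subunits fell. In the large subunit 14 of 33 genes fell (42.4%), with a median of -0.24 or 84.7% of the control. In the small subunit 9 of 21 fell (42.9%), with a median of -0.34 or 79.1% of the control. The middle 50% of differences ran from -0.36 to -0.14 in the large subunit and from -0.39 to -0.22 in the small, so that the ranges overlap. The 2 medians were not compared by a test. The 4 FSH/EGF arrays gave large subunit medians, relative to the control mean of each gene, of -0.17, -0.27, -0.31 and -0.24. For the small subunit the same arrays gave -0.18, -0.36, -0.41 and -0.40. Control arrays lay between -0.06 and 0.12 for the large subunit and between -0.08 and 0.11 for the small subunit. FSH/EGF array 1 was thus the nearest to the controls for both subunits, and it stood above the other FSH/EGF arrays for 33 of the 54 genes.

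**Figure D2:**
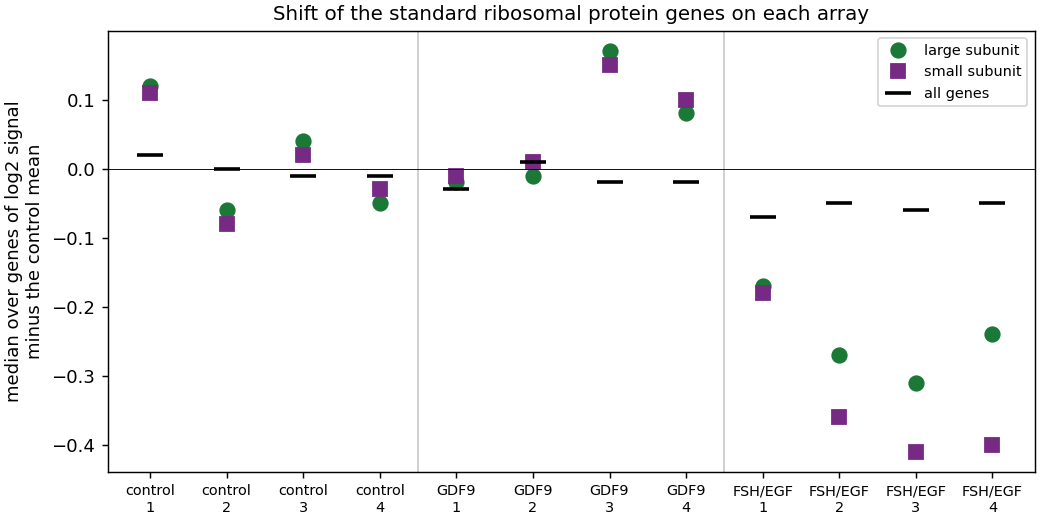
Median over the genes of the large subunit, of the small subunit and of all genes, for each array, of the log2 signal minus the gene's control mean (y axis). The FSH/EGF arrays lie between -0.41 and -0.17 for both subunits, the control and GDF9 arrays between -0.08 and 0.17, and the medians of all genes between -0.07 and 0.02.

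In the small subunit the largest fall was that of Rps13. Control arrays 1 to 4 read 9.41, 8.83, 9.06 and 9.00, GDF9 arrays 8.88, 9.20, 9.28 and 9.11, and FSH/EGF arrays 8.57, 8.32, 8.30 and 8.39. Every FSH/EGF array was below every control and GDF9 array. The difference was -0.68 ± 0.12 (SE, limma adjusted p = 0.00117). Rps10, which lies at the head of the subunit, read 11.30, 10.92, 10.93 and 10.85 in controls, 10.84, 11.03, 11.09 and 11.13 with GDF9, and 10.50, 10.43, 10.51 and 10.48 with FSH/EGF. Its FSH/EGF arrays were the lowest 4 of the 12, and control array 1 was the highest. It fell by 0.52 ± 0.10 (limma adjusted p = 0.00175), to 69.7% of the control.

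Rps28, a small protein near the site where mRNA leaves the subunit, had tight groups. It read 11.12, 11.19, 11.30 and 11.29 in controls, 11.24, 11.23, 11.27 and 11.27 with GDF9, and 10.93, 10.75, 10.66 and 10.68 with FSH/EGF. The GDF9 arrays lay within the control range and the FSH/EGF arrays below both groups, highest on array 1. The fall was -0.47 ± 0.07 (limma adjusted p = 0.000385). Rps12, a protein of the subunit's beak, read 10.96, 10.96, 11.31 and 11.05 in controls, 11.14, 11.22, 11.30 and 11.19 with GDF9, and 10.86, 10.62, 10.52 and 10.42 with FSH/EGF. The control and FSH/EGF arrays did not overlap, with FSH/EGF array 1 again nearest to the controls. It fell by 0.46 ± 0.10 (limma adjusted p = 0.00488).

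Rpsa, the ribosomal protein also known as the laminin receptor, read 11.55, 11.44, 11.32 and 11.40 in controls and 11.12, 11.01, 11.17 and 10.99 with FSH/EGF. All FSH/EGF arrays were below all controls, and the fall was -0.36 ± 0.07 (limma adjusted p = 0.00253). Rps4x, an X-linked protein of the small subunit, read 10.84, 11.10, 11.04 and 11.10 in controls and 10.88, 10.67, 10.54 and 10.46 with FSH/EGF. Here FSH/EGF array 1 lay just above control array 1, so that the groups overlapped. The difference was -0.38 ± 0.10 and passed the test (limma adjusted p = 0.00931). Rps6, the substrate of S6 kinase that reports mTORC1 activity when phosphorylated, read 11.70, 11.68, 11.75 and 11.58 in controls, 12.02, 11.35, 11.89 and 11.67 with GDF9, and 11.64, 11.49, 11.37 and 11.31 with FSH/EGF. Its groups overlapped. The difference of -0.23 (95% interval -0.50 to 0.05) did not pass (limma adjusted p = 0.205).

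**Figure D3:**
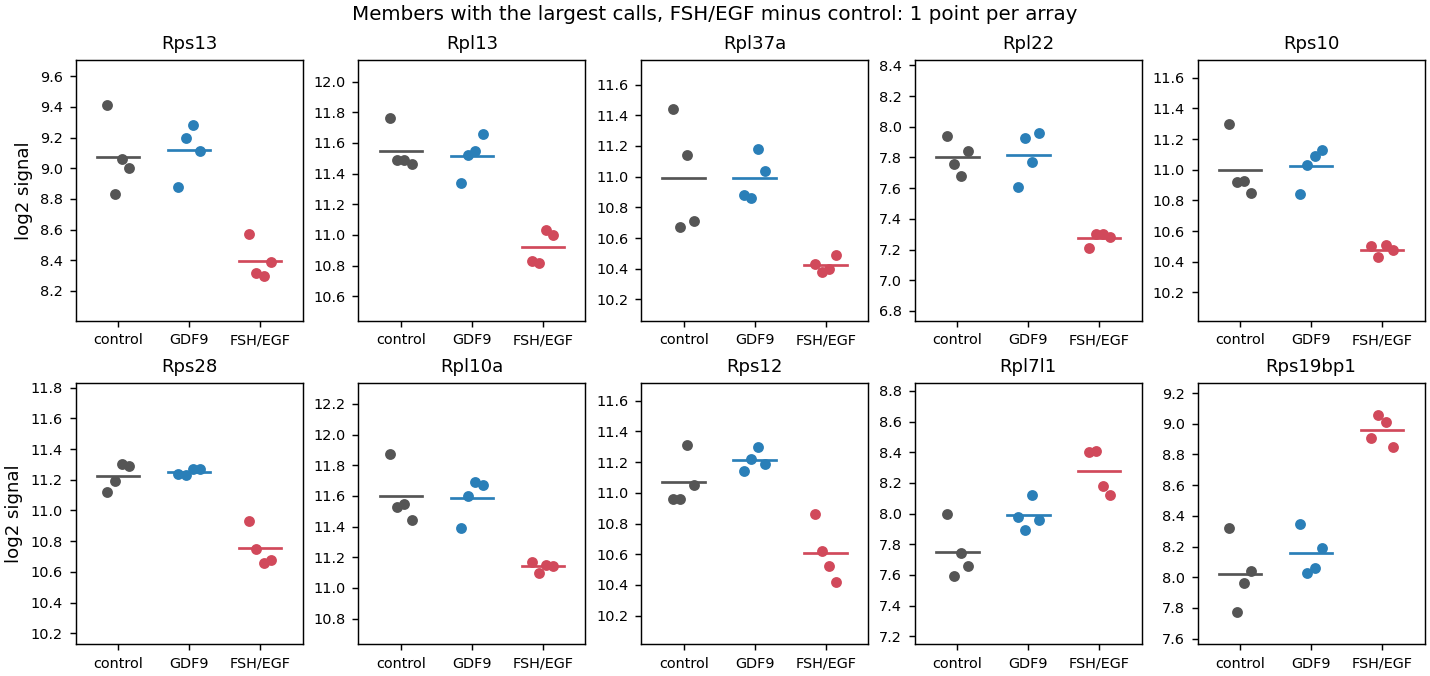
Log2 signal (y axis) on arrays 1 to 4 of each group, with a line at the group mean, for 10 genes, in panels that span equal ranges. In the panels of Rps13, Rpl13, Rpl37a, Rpl22, Rps10, Rps28, Rpl10a and Rps12 the 4 FSH/EGF points lie below every control and GDF9 point, while in that of Rps19bp1 they lie above both and in that of Rpl7l1 above every control point.

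In the large subunit the largest fall was that of Rpl13. It read 11.76, 11.49, 11.49 and 11.46 in controls, 11.34, 11.52, 11.55 and 11.66 with GDF9, and 10.83, 10.82, 11.03 and 11.00 with FSH/EGF. All FSH/EGF arrays lay below all others, and the difference was -0.63 ± 0.09 (limma adjusted p = 0.000249). Rpl37a, a zinc-binding protein of the large subunit, read 11.44, 10.67, 11.14 and 10.71 in controls, 10.88, 10.86, 11.18 and 11.04 with GDF9, and 10.43, 10.38, 10.40 and 10.49 with FSH/EGF. Its controls were spread (SD 0.367, n = 4) and its FSH/EGF arrays close together, without overlap. It fell by 0.57 ± 0.15 (limma adjusted p = 0.0127).

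Rpl22, which is not essential for translation and binds cellular and viral RNAs, read 7.94, 7.76, 7.68 and 7.84 in controls, 7.61, 7.93, 7.77 and 7.96 with GDF9, and 7.21, 7.30, 7.30 and 7.28 with FSH/EGF. No FSH/EGF array reached the lowest array of either other group. The fall was -0.54 ± 0.09, to 69.0% of the control (limma adjusted p = 0.000483). Rpl10a, a protein of the L1 stalk past which spent tRNAs leave, read 11.87, 11.53, 11.55 and 11.44 in controls, 11.39, 11.60, 11.69 and 11.67 with GDF9, and 11.17, 11.10, 11.15 and 11.14 with FSH/EGF. FSH/EGF arrays were again the lowest 4. The difference was -0.46 ± 0.10 (limma adjusted p = 0.00343).

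Rpl5 forms, with Rpl11 and the small ribosomal RNA of the large subunit, the particle that binds Mdm2 when ribosome assembly fails. It read 11.47, 11.71, 11.74 and 11.80 in controls, 11.96, 11.53, 11.86 and 11.72 with GDF9, and 11.42, 11.29, 11.12 and 11.06 with FSH/EGF. Control and GDF9 arrays overlapped, and the FSH/EGF arrays lay below both, with FSH/EGF array 1 close to control array 1. It fell by 0.46 ± 0.11 (limma adjusted p = 0.00924). Rpl36a, next to the tRNA exit site, read 10.25, 10.62, 10.78 and 10.58 in controls and 10.45, 10.17, 10.03 and 9.95 with FSH/EGF. FSH/EGF array 1 exceeded control array 1. The difference of -0.41 ± 0.13 passed narrowly (limma adjusted p = 0.0351). It did not pass without any 1 of control arrays 2, 3 and 4 or FSH/EGF arrays 2, 3 and 4, when it lay at -0.41 to -0.33. Nor did it pass with the compared groups alone (0.0554), equal array medians (0.0973), the replicate number as a block (0.0661) or the mean of its probe sets (0.0536). Rpl7, a protein of the large subunit, read 10.78, 10.66, 10.80 and 10.80 in controls and 10.65, 10.53, 10.36 and 10.55 with FSH/EGF. The groups were separated by a narrow gap. Its difference of -0.24 ± 0.08 passed (limma adjusted p = 0.0372) and was -0.16 with equal array medians (adjusted p = 0.182). Without any 1 of control arrays 1, 3 and 4 or FSH/EGF arrays 2, 3 and 4 it did not pass either (-0.25 to -0.19). With the replicate number as a block its limma adjusted p was 0.0648.

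The 3 proteins of the stalk, which calls in elongation factors, did not pass the test, though Rplp1 and Rplp2 did under some other settings. Rplp0, the base of the stalk, read 11.51, 11.26, 11.13 and 11.26 in controls, 11.37, 11.38, 11.23 and 11.37 with GDF9, and 11.29, 11.16, 11.12 and 11.05 with FSH/EGF. The groups overlapped, and the difference was -0.13 (95% interval -0.32 to 0.06, limma adjusted p = 0.27), or -0.06 without control array 1. Rplp1 read 11.61, 11.73, 11.61 and 11.75 in controls and 11.49, 11.38, 11.49 and 11.51 with FSH/EGF. Its FSH/EGF arrays all lay below its controls, by a small margin. The difference was -0.21 (95% interval -0.37 to -0.04, limma adjusted p = 0.0595), and it passed without GDF9 array 2 (0.043) or GDF9 array 3 (0.0407). It also passed with a variance trend (0.0497), the compared groups alone (0.0434), array weights (0.0254) and the mean of its probe sets (-0.25, 0.0141). Of its 2 probe sets, 1 fell (-0.29 to -0.21). Rplp2 read 7.28, 7.76, 7.86 and 7.87 in controls and 7.71, 7.48, 7.47 and 7.53 with FSH/EGF. Control array 1 was its lowest value of all. The difference was -0.14 (95% interval -0.40 to 0.11, limma adjusted p = 0.378) and was -0.28 without control array 1 (adjusted p = 0.0158). It was -0.24 with array weights (0.0374) and -0.36 after a renewed quantile normalization (0.0251).

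The brightest probe sets were those of Rpl10, Rpl41 and Rpl28. Rpl10, which joins the large subunit late in its assembly, read 12.10, 12.47, 12.31 and 12.46 in controls and 12.19, 12.27, 12.14 and 12.16 with FSH/EGF. These overlapped, with a difference of -0.15 (95% interval -0.38 to 0.08, limma adjusted p = 0.312). Rpl41, a very short basic peptide, read 12.35, 12.07, 12.21 and 12.11 in controls and 12, 12.03, 12.08 and 12.01 with FSH/EGF. Only FSH/EGF array 3 exceeded the lowest control, and the difference of -0.15 ± 0.08 did not pass (limma adjusted p = 0.197). Rpl28, a protein of the large subunit, read 12.40, 12.18, 12.20 and 12.18 in controls and 11.90, 11.90, 11.97 and 12 with FSH/EGF. These did not overlap. It fell by 0.29 ± 0.07 (limma adjusted p = 0.00657), and without the 3 arrays named above the difference was -0.26 (adjusted p = 0.0619).

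Falls were seen on several probe sets of a gene. Of the 63 genes, 39 had more than 1 probe set with that symbol alone, 195 probe sets in all. Of these 96 fell, 0 rose and 191 had a negative difference, where 12.5% of all probe sets fell, 16.5% rose and 59.7% were negative. All 14 probe sets of Rps12 fell (-0.66 to -0.46), as did all 9 of Rpl13 (-0.71 to -0.56), all 7 of Rps28 (-0.53 to -0.38), all 3 of Rps13 (-0.68 to -0.62) and all 5 of Rpsa (-0.62 to -0.36). For Rps6, 2 of 8 fell, and for Rps15 1 of 3 (-0.80 to -0.32). At the other end, 0 of 6 probe sets fell for Rpl10 (-0.19 to 0.01) and 0 of 2 for Rplp0 (-0.13 to 0.02). Ribosomal protein genes have many near-identical processed copies in the genome, so that probe sets of 1 symbol can share transcripts, and their values are not independent.

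The run of pyrimidines shown above was no more frequent among the standard genes that fell than among those that did not pass. It lay within 3 bases of the start in 3 of 18 standard genes that fell (16.7%) and in 11 of 25 that did not pass (44.0%), and at the exact first base in 2 of 18 and 7 of 25. Rps10 and Rpl28 fell and carry it, Rps13 and Rpl13 fell without it in this window, and Rps6 and Rplp2 carry it and did not pass.

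Of the 9 other symbols, 2 rose and 2 fell, 22.2% each, where 21.9% of all genes rose and 14.9% fell. Rps19bp1 encodes a protein that binds the ribosomal protein Rps19 and activates the deacetylase Sirt1, and is no subunit of the ribosome. It read 8.32, 7.77, 7.96 and 8.04 in controls, 8.35, 8.03, 8.06 and 8.19 with GDF9, and 8.91, 9.06, 9.01 and 8.85 with FSH/EGF. All 4 FSH/EGF arrays stood above all others. It rose by 0.94 ± 0.11, or 1.91-fold (limma adjusted p = 4.38e-05). Rpl7l1, a paralog of Rpl7, read 8.00, 7.59, 7.74 and 7.66 in controls, 7.98, 7.89, 8.12 and 7.96 with GDF9, and 8.40, 8.41, 8.18 and 8.12 with FSH/EGF. FSH/EGF and control arrays did not overlap, and the GDF9 arrays lay in the upper part of the control range or above it. Rpl7l1 rose by 0.53 ± 0.10, or 1.44-fold (limma adjusted p = 0.0018), while its partner Rpl7 fell. After a renewed quantile normalization the difference of Rpl7l1 was 0.31 (adjusted p = 0.069).

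The other paralogs differed less from the control or were dim. Rpl3l, a paralog of Rpl3 best known from muscle, read 4.93, 4.70, 4.83 and 4.77 in controls, 4.61, 4.69, 4.61 and 4.54 with GDF9, and 4.59, 4.55, 4.49 and 4.59 with FSH/EGF. Controls were above all treated arrays, and it fell by 0.25 ± 0.07 with FSH/EGF (limma adjusted p = 0.0132), at a level under 5.07, the 40th percentile of all probe sets' means. With equal array medians the difference of Rpl3l was -0.18 (adjusted p = 0.0582), and after a renewed quantile normalization -0.17 (0.0668). Rps4l, a paralog of Rps4x, read 8.11, 7.18, 7.35 and 7.16 in controls and 7.63, 7.49, 7.55 and 7.76 with FSH/EGF. Control array 1 was above all other arrays of both groups. The difference was 0.16 (95% interval -0.22 to 0.53, limma adjusted p = 0.515) and was 0.38 without control array 1 (adjusted p = 0.00504), while Rps4x fell. Rps27l, a paralog of Rps27 that p53 induces, differed by -0.01 (95% interval -0.31 to 0.30), and Rpl10l, a paralog of Rpl10 known from the testis, by 0.00 (95% interval -0.27 to 0.27). Rpl32l, a predicted copy of Rpl32, was the other symbol of these 9 that fell, by 0.37 with overlapping groups (limma adjusted p = 0.0472), and was named after its values were seen. Rpl39l, a paralog of Rpl39 also known from the testis, was among the 3 dimmest at 4.32 to 4.50 in controls and differed by -0.02. Rps23rg1, a copy of Rps23, was the remaining dim one and differed by -0.25 ± 0.10 without passing (limma adjusted p = 0.0776), or with 0.0153 when GDF9 array 1 was left out.

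Other genes of protein synthesis were listed for comparison, with earlier results of these data known. Most genes of the list of translation initiation factors moved the other way. With FSH/EGF 18 of 25 rose (72.0%, against 21.9% of all genes), 1 fell, and the median difference was 0.43. Among genes with a mean of at least 8, 43.9% rose, with a median of 0.24. Eif5a, which eases translation through difficult stretches, rose by 0.90 ± 0.13 (limma adjusted p = 0.000218). Eif4e, which binds the mRNA cap, rose by 0.78 ± 0.14 (limma adjusted p = 0.000905). Eif3c, a core subunit of the factor that joins the small subunit, rose by 0.73 ± 0.10 (limma adjusted p = 0.000101). Eif3e, Eif3f, Eif3h, Eif3k, Eif3l and Eif4b, also initiation factors, were listed with the TOP transcripts, where Eif3f fell and Eif4b rose. The count of 1 fall was 0 without control array 2 or FSH/EGF array 3 and 2 without control array 1.

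Factors that assemble and export ribosomal subunits rose in 18 of 32 cases (56.2%), and 1 fell, with a median of 0.36. Among all genes 21.9% rose and 14.9% fell. Pno1, needed to mature the small subunit's RNA, rose by 1.12 ± 0.14 (limma adjusted p = 5.34e-05), the kinase Riok3 by 1.12 ± 0.12 (1.72e-05) and Sdad1, a nucleolar assembly factor, by 0.98 ± 0.10 (9.58e-06). Of the proteins of the mitochondrial ribosome, which is built from a separate set of genes, 32 of 77 rose (41.6%) and 2 fell, with a median of 0.21. Among genes with a mean of at least 8, 43.9% rose and 16.5% fell, with a median of 0.24. The mitochondrial share of rises and median lay near those of bright genes and above those of all genes (21.9% and -0.07). Many of these mitochondrial genes had means under 8, such as Mrpl1 at 6.67 and Mrpl33 at 5.88. Bright genes are therefore no matched reference for them. Mrps6 rose by 1.17 ± 0.15 (limma adjusted p = 7.83e-05). After a renewed quantile normalization 10 of the 32 assembly factors rose, and of the mitochondrial proteins 18 rose and 9 fell. The count of 1 fall among assembly factors was 0 without control array 1 or 2 or FSH/EGF array 1, 2 or 3 and 2 without GDF9 array 1. The count of 2 falls among mitochondrial proteins was 1 without control array 2, 3 or 4, GDF9 array 3 or 4, or any 1 FSH/EGF array. Genes named Psma to Psmd were listed for another large complex, the proteasome. They were taken by symbol and include genes that encode no subunit, such as the assembly chaperones Psmd5, Psmd9 and Psmd10 and the recombination factor Psmc3ip. Of these 40, 33 rose (82.5%) and 3 fell, with a median of 0.64. The rises of the chaperone Psmd5 (1.24 ± 0.13) and of the subunits Psmd7 (1.17 ± 0.13) and Psma5 (0.99 ± 0.18) were the largest among those (limma adjusted p = 1.15e-05, 2.36e-05 and 0.00139).

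The list of elongation factors and other well known TOP transcripts divided, with 5 of 18 falling and 5 rising (27.8% each, against 14.9% and 21.9% of all genes) and a median of -0.12. Eif3f, a subunit of initiation factor eIF3, fell by 0.70 ± 0.10 (limma adjusted p = 0.000171), and Eef1b2, which recycles the factor that delivers tRNAs, fell by 0.47 ± 0.08 (0.000587). Vim, the intermediate filament protein vimentin, rose by 1.32 ± 0.10 (limma adjusted p = 9.45e-07). Of these 18, 2 or 3 fell when control array 2, 3 or 4 or FSH/EGF array 3 or 4 was left out.

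**Figure D4:**
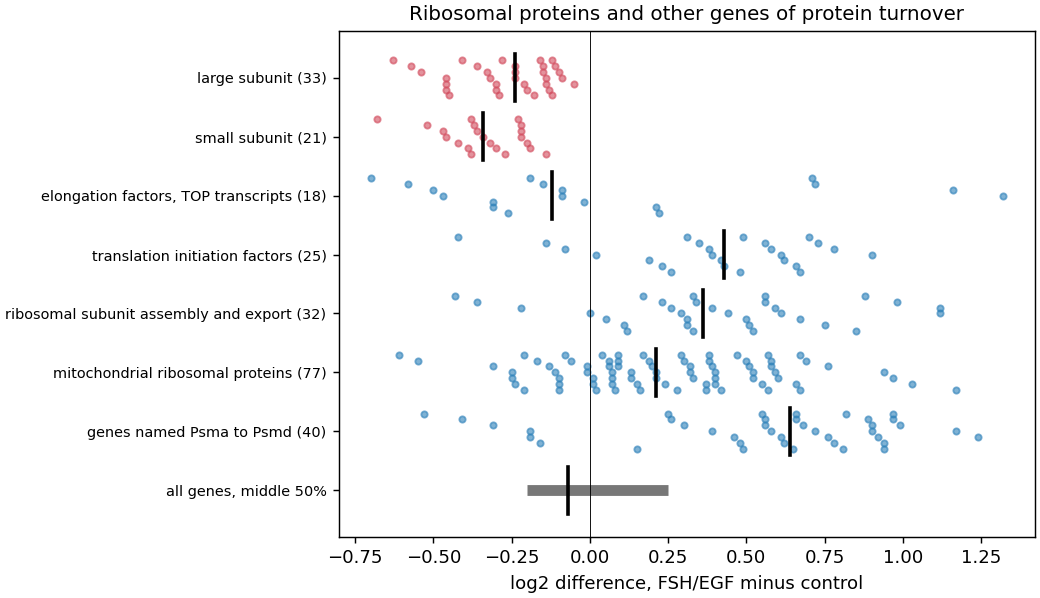
FSH/EGF minus control, as a log2 difference (x axis), with a dot for each gene of 7 lists (rows, with the number of genes), a black bar at each median and a grey bar for the middle 50% of all genes (-0.20 to 0.25). The medians of the large and the small subunit lie at -0.24 and -0.34, those of elongation factors and TOP transcripts at -0.12, and those of initiation factors, assembly factors, mitochondrial ribosomal proteins and genes named Psma to Psmd at 0.43, 0.36, 0.21 and 0.64.

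Genes known to control ribosomal protein synthesis were also read. Of 11 genes of the MYC family and its partners 4 fell (36.4%, against 14.9% of all genes) and 3 rose (27.3%, against 21.9%). Myc stood at 9.24 to 9.79 on control arrays, 9.35 to 10.12 on GDF9 arrays and 6.42 to 7.33 on FSH/EGF arrays. It fell by 2.76 ± 0.21 (limma adjusted p = 5.56e-07). Its relatives Mycn and Mycl fell by 1.86 ± 0.15 (8.7e-07) and 1.14 ± 0.15 (0.000115). For each of the 3, the FSH/EGF arrays lay below every control and GDF9 array. Of the 3 rises in this family, 1 was called when control array 2 or 3 or any 1 of the 4 FSH/EGF arrays was left out, and 0 after a renewed quantile normalization. Of 26 genes around mTORC1, 9 rose (34.6%) and 4 fell (15.4%), against 21.9% and 14.9% of all genes. Ddit4, an inhibitor of mTORC1, rose by 2.73 ± 0.14 (limma adjusted p = 1.67e-08), from 6.15 to 6.71 in controls to 9.05 to 9.17 with FSH/EGF. Ddit4l (Ddit4-like), on the same list, fell by 1.78 ± 0.16 (limma adjusted p = 3.16e-06). Eef2k, the kinase that halts elongation factor 2, fell by 2.19 ± 0.09 (4.36e-09), and Rragd, a GTPase that brings mTORC1 to the lysosome, rose by 2.12 ± 0.12 (5.52e-08). Whether any of these, or the lower granulosa lineage markers, has a part in the lower ribosomal protein signals was not tested.

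With GDF9, 0 of the 63 genes passed the threshold of limma's test, where 0% of all genes did. Their smallest adjusted p was 0.971. An unadjusted p under 0.05 was found for 0 of the 54 standard genes and 2 of all 63, against 4.95% of all genes. The median difference of the standard genes was 0.05, with 0.04 for the large and 0.06 for the small subunit, and single genes ran from -0.08 to 0.25. With 1 array left out at a time the median ran from 0.01 to 0.08, and without GDF9 array 3 it was 0.01, with 21 of the 54 differences negative. Of the 54, 43 had a positive difference and 11 a negative one, whereas 56.3% of all genes and 27% of the bright genes were negative. After a renewed quantile normalization 22 of the 54 were negative, with a median of 0.02, and with array weights 6 were negative, with a median of 0.11. No standard gene separated the 4 GDF9 arrays from the 4 controls, against 2.32% of all genes. The arrays gave medians of -0.01, -0.01, 0.17 and 0.08 relative to the control mean, which overlap the controls at 0.11, -0.06, 0.03 and -0.04.

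The 4 genes with the smallest p under GDF9 were Rpl3l, Rpl7l1, Rps15 and Rpl27, and none passed the adjusted threshold. Rpl3l, described above, had the only set of GDF9 arrays that did not overlap its controls, with a difference of -0.20 (unadjusted p = 0.0125 in limma's fit, adjusted p = 0.971). Rpl7l1 differed by 0.24 (95% interval 0.02 to 0.46, unadjusted p = 0.0368). Rps15, a protein of the head of the small subunit, read 11.22, 10.67, 11.06 and 10.90 in controls and 11.02, 11.24, 11.29 and 11.19 with GDF9, a difference of 0.22 within overlapping groups, or 0.13 without control array 2. Rpl27, a protein of the large subunit, read 10.53, 10.25, 10.32 and 10.16 in controls and 10.24, 10.53, 10.64 and 10.51 with GDF9. Its difference of 0.17 also lay within overlapping groups, and was 0.11 without control array 4 or GDF9 array 3.

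FSH/EGF against GDF9 uses the same FSH/EGF arrays as the comparison with the control, so its results are not a second, independent reading of them. Of the 54 standard genes 30 were lower with FSH/EGF (55.6%) and 0 higher, where 10.5% of all genes were lower and 18.6% higher. All 54 differences were negative, with a median of -0.35 or 78.5% of the GDF9 signal. In the large subunit 17 of 33 were lower (51.5%), with a median of -0.29, and in the small subunit 13 of 21 (61.9%), with a median of -0.41. Over all 63 symbols 31 were lower and 1 was higher. The 4 FSH/EGF arrays lay below the 4 GDF9 arrays in 28 of the 54, against 13.5% of all genes. Without GDF9 array 3, which was the highest GDF9 array for 24 of the 54, 22 were lower.

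The largest falls from GDF9 were those of Rps13 (-0.72, limma adjusted p = 0.000857), Rpl12 and Rps12. Rpl12, a protein of the stalk base, is represented by a dim probe set. It read 6.19, 6.05, 6.52 and 6.64 in controls, 6.24, 6.43, 6.62 and 6.86 with GDF9, and 6.13, 5.53, 5.98 and 5.93 with FSH/EGF. All FSH/EGF arrays were below all GDF9 arrays, by -0.64 ± 0.17 (limma adjusted p = 0.0148), while the difference from the control, -0.46 ± 0.17, did not pass (0.0613) but did without control array 2 (-0.56, 0.0345), with array weights (0.0384) and without the 40% dimmest probe sets (0.0422). Rps12 differed from GDF9 by -0.61 (0.000836) and Rpl13 by -0.60 (0.000438). Rps15 read 10.87, 10.59, 10.56 and 10.56 with FSH/EGF, all below its GDF9 arrays, and differed by -0.54 ± 0.12 (limma adjusted p = 0.00453) from GDF9 and by -0.32 ± 0.12 (0.0607) from the control. The latter passed without control array 2 (-0.42, 0.0158) or FSH/EGF array 1 (-0.40, 0.0332). That difference also passed with the mean of its 3 probe sets (-0.51, 0.0154), after a renewed quantile normalization (0.0418) and without the 40% dimmest probe sets (0.0479). Rps19bp1 was the 1 gene higher with FSH/EGF than with GDF9, by 0.80 ± 0.11 (limma adjusted p = 0.000184). Rpl7l1 differed by 0.29 (adjusted p = 0.0626, or 0.0244 without control array 1 and 0.0473 without FSH/EGF array 4), and Rpl7 by -0.35 (0.00503). The stalk proteins did not pass here either: Rplp0 differed by -0.18 (adjusted p = 0.174), Rplp1 by -0.16 (0.161) and Rplp2 by -0.09. With the mean of its probe sets Rplp1 passed (-0.26, 0.0131).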

How the data were processed

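Mouse cumulus cell RNA was measured on 12 arrays. The authors deposited log2 signals of 35399 probe sets, already normalized; per the submitters' processing notes the tools were GCOS, RMA and Partek, with neither version nor role. Not given in the sources used here were the array annotation's version and genome build. Arrays give no read depth, and their number limits the precision. Signal over background was not analysed here.

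Groups were compared by linear models of group means, fitted to 12 arrays with limma 3.58.1 under R 4.3.3, with empirical Bayes variances and p-values adjusted over all probe sets by Benjamini-Hochberg for each of 3 comparisons, with a threshold of 0.05. The fit was also run on simulated data with independent noise in each probe set. That run checks the code, and not deviations that probe sets of an array share. Log2 differences carry a standard error or a 95% interval. Of the probe sets, 21789 had 1 symbol, 1621 several and 11989 none in the annotation used here, and only the first name a gene.

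The members and lists were chosen with earlier results of these data known. Named in the text are, per comparison, up to 8 largest rises and falls past the threshold whose arrays do not overlap (with fewer than 4 calls, the 4 smallest p), the stalk and other set members, all measured paralogs, the 3 brightest and 3 dimmest, and up to 3 genes of each other list. Rpl32l, Rps23rg1 and Rps19bp1 were set apart from the standard proteins after their values were seen. Ddit4l was named beyond that number of genes per list, also after its values were seen. Replicate numbers share a label across groups, and the labels name no pairing, so that no block was fitted. Of 12 same-numbered deviations 7 correlated over 0.1 (-0.389 to 0.221), which neither shows nor excludes a pairing.

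Alternatives were a variance trend, array weights, robust moderation, a fit to the compared groups alone, the 40% dimmest probe sets removed, renewed quantile normalization and equal array medians. Others were the replicate block, each array left out, the mean of a gene's probe sets and standard proteins alone, a set settled after values were seen. Added after seeing the data were 3 arrays left out together, probe sets with several symbols, and genes with a mean of at least 8. Start sequences come from RefSeq's promoter table, matched by symbol.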

Additional observations from a re-analysis of the deposited data

Results flagged for a closer look

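In 9 of 102 groups of 4 arrays tested, 1 array lay farther from the other 3 than Dixon's critical value allows, where chance gives about 1 in 20. Control array 1 was high for Rpl13 (11.76, other controls 11.46 to 11.49) and for Rpl28 (12.40, others 12.18 to 12.20). Control array 2 was low for Rpl7 (10.66, others 10.78 to 10.80). FSH/EGF array 1 was high for Rpl10l (6.43, others 6.12 to 6.15) and for Rps15 (10.87, others 10.56 to 10.59), and FSH/EGF array 2 was low for Rplp1 (11.38, others 11.49 to 11.51). GDF9 array 2 was high for the dim Rpl39l (4.53, others 4.47 to 4.48), and GDF9 array 3 was low for Rplp0 (11.23, others 11.37 to 11.38). The median signal over the small subunit was high on GDF9 array 3 (11.15, others 11.00 to 11.03).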

How the results depend on the processing

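Under every setting tried, 53 or 54 of the 54 standard genes had a negative difference, of any size, between FSH/EGF and the control, with medians from -0.33 to -0.21. Of these 54, 13 fell past the threshold each time. Equal array medians left 16 of 63 genes lower, against 25, with medians of -0.18 over all 63, -0.21 over the standard genes, -0.16 for the large and -0.26 for the small subunit, and 1832 of all genes lower. That scaling puts 72.5% of calls among all genes on the higher side, against 59.4%. A renewed quantile normalization left 1 of 2 rises and gave -0.41 for the small subunit, and 31 of the 54 standard genes fell, against 23. With array weights 31 of the 54 fell as well. Without FSH/EGF array 3 and control arrays 1 and 4 together, chosen after seeing the data, 14 genes fell, all 14 of them standard, and 1782 of all genes. Among genes with a mean of at least 8, 497 fell and 1319 rose, and against GDF9 506 and 1079. With standard proteins alone 0 rose in either comparison. Against GDF9, 2 genes were higher instead of 1 with only the groups compared, array weights, equal array medians or the 3 arrays left out.

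With 1 array left out at a time, 18 to 29 of the 63 genes and 17 to 27 of the 54 fell with FSH/EGF, 23 to 37 of the 63 were lower and 1 to 2 higher than with GDF9, and 0 to 1 of all genes rose with GDF9. In 9 of 24 combinations of an array with another group, the best correlation was with its own number, which does not settle a pairing. With the replicate number as a block, 22 of the 54 fell, 21 of them among the 23. No direction of a called result turned. The number of arrays limits small differences: standard errors ran from 0.06 to 0.21, and dim probe sets such as Rpl39l may lie near background, which was not measured.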

Other observations

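Rpl26, Rpl29 and Rpl30, proteins of the large subunit with 1 probe set each, held some of the widest deviations of single arrays. They were chosen for that after their values were seen. Rps19, of the small subunit and also with 1 probe set, deviated by -0.77 on GDF9 array 1, against -0.89 for Rpl26 there. Rpl26 read 9.11, 8.67, 9.06 and 8.60 in controls, 8.44, 9.51, 9.30 and 9.20 with GDF9, and 8.73, 8.29, 8.37 and 8.73 with FSH/EGF. GDF9 array 1 was its lowest GDF9 array by a wide gap. Rpl29 read 9.67 on control array 1 and 8.80 to 9.14 on the other controls, and Rpl30 read 7.41 there and 8.11 to 8.21 on the others, so that this array was high for one and low for the other. Fau, whose protein is a ribosomal protein fused to a ubiquitin-like part, lies outside the symbols used and differed by -0.12 with FSH/EGF, without passing the test (limma adjusted p = 0.43).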
